A study of Mus musculus with 24 samples.

Results

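Treadmill training in the soleus of old mice was followed by comparing the trained old mice (OE) with the untrained old controls (OC), written SOL OE/OC, over every gene of the deposited table. The libraries of each group were taken from the sample labels, and the comparison holds 6 of the 24 libraries, SOL OE replicates 1, 2 and 3 and SOL OC replicates 3, 4 and 5. The whole study sequenced mRNA of the soleus (SOL) and of the gastrocnemius (GAS) from young and old mice with and without training, and asked how fibre type shapes the response to age and exercise. All 6 libraries came from male C57BL/6 mice labelled as 84 weeks old and individually housed. OE mice ran for 4 weeks on a treadmill at an incline of 6 degrees, in sessions of 37 min, 2 a day, at 12 m/min in the first week and 2 m/min faster each week after that. OC mice are labelled as controls. The young trained (YE) and young control (YC) mice set beside them were males labelled as 9 weeks old, and YE mice ran the same 4 weeks. RNA was taken from whole muscle, so fewer cells of a type and less RNA per cell cannot be told apart. Each group held 3 mice. A p-value for SOL OE/OC measures only the spread between animals within a group, estimated over all 12 SOL libraries, young mice included. The time of day at which the muscles were taken and the time since the last run are not given in the sources used here. Whether either differed between OE and OC is unknown, so their part in clock and immediate early genes was not tested.

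The soleus is a postural calf muscle rich in slow, oxidative fibres and is in use for much of the day. Repeated running is known to load the Z-disc, where neighbouring sarcomeres are joined, and each bout is known to switch on short-lived immediate early genes and growth factors such as the one encoded by Vegfa. Muscle also holds its own circadian clock, in which the proteins of Arntl and Clock switch on the period, cryptochrome and Dbp genes, whose products feed back on the clock.

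The deposited values are FPKM, fragments per kilobase of transcript scaled to the library's mapped fragments, and their quantile normalized log2(FPKM + 1). The 6 libraries summed to between 391354 and 424906 FPKM, and each had between 10781 and 10976 genes at 1 FPKM or more. Read depth is unknown from these values. A gene is called measured here where it averaged at least 1 FPKM over the 12 SOL libraries, which holds for 11004 of 18795 genes. Myh7, the slow myosin heavy chain, was at 2853 to 2989 FPKM in OE and 2197 to 3206 FPKM in OC. Myh4, the fastest myosin, was at 14.2 to 102.6 FPKM in OE and 16.5 to 264.3 FPKM in OC, with the highest values in OE 1 and OC 3. SOL OE 3 stood apart in some blood markers. Its 18 lymphocyte markers summed to 9.21 FPKM, against at most 1.99 FPKM in the other libraries, its 12 neutrophil markers to 12.2 FPKM, against at most 2.39 FPKM, and Alas2, the heme synthesis enzyme of red cell precursors, was at 41.5 FPKM, against at most 2.84 FPKM. The 8 globin rows did not follow this order, at 111.2 FPKM in OE 3 against 266.9 FPKM in OC 4 and 338.3 FPKM in OC 5. On the first principal component of the measured genes, which held 27.2% of the variance, OC 5 scored -17.89 and the other 5 libraries between -1.62 and 7.79.

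The differences between OE and OC were small for most genes. The median size of the log2 difference over measured genes was 0.07, and 95% of them differed by less than 0.26. With limma, 1 of 18795 genes passed an adjusted p under 0.05 (0.00532%), and 1145 genes had an unadjusted p under 0.05 (6.09%), 498 of them higher in OE (2.65%) and 647 lower (3.44%). A gene is called a DEG here at the cutoffs of the study, a fold change over 1.5 with an unadjusted p under 0.05, but with the p of limma over the 12 SOL libraries, which was not the study's own test, and 28 genes met this (0.149%), of which 11 were higher in OE (0.0585%) and 17 lower (0.0904%). In 10 of the 11 and 14 of the 17, the OE and OC libraries did not overlap in their normalized values, and over all genes 5.16% lay without overlap higher in OE and 5.88% lower. Among the 11004 measured genes 23 were DEGs (0.209%), 10 higher (0.0909%) and 13 lower (0.118%), and 758 had an unadjusted p under 0.05 (6.89%). None of the 28 DEGs passed the adjusted p, and they are given by their values. With the test without moderation on the 6 libraries, 23 genes were DEGs, 12 higher and 11 lower. The number of DEGs was 34 without OE 3 and 28 without OC 5, and it was 187 with a pseudocount of 0.1 in place of 1.

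**Figure D1:**
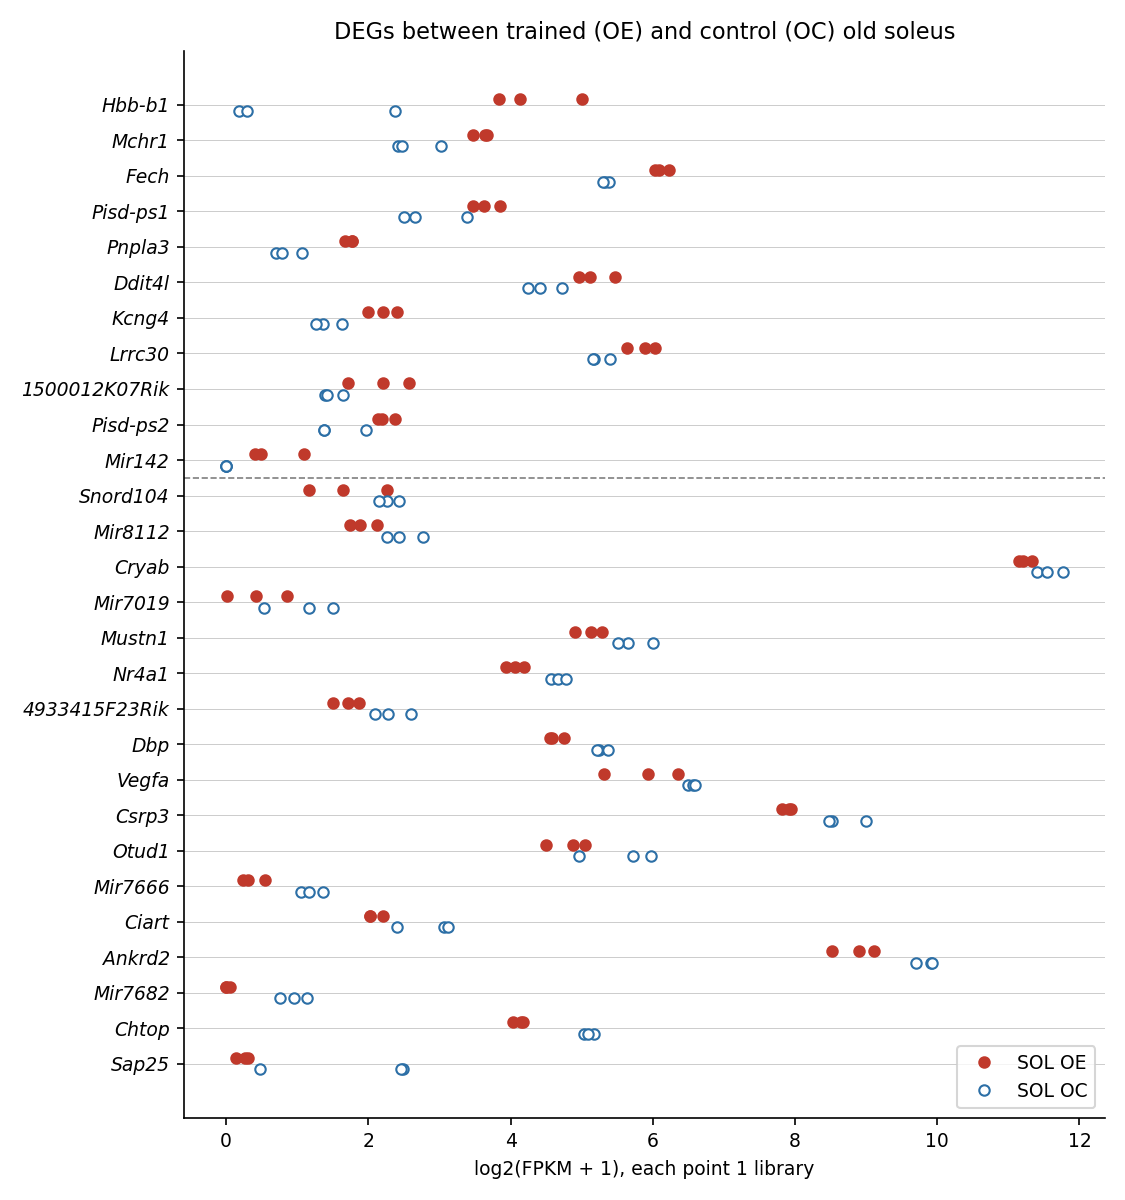
Expression of the 28 DEGs of SOL OE/OC in each library, as log2(FPKM + 1) of the deposited FPKM on the horizontal axis, with SOL OE as filled points above SOL OC as open points in each gene's row. Genes above the dashed line were higher in OE and those below it lower, sorted by the log2 difference, and the groups of 1500012K07Rik, Otud1, Mir7019 and Snord104 overlap.

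The gene that passed was 4930415O20Rik, an open reading frame without a known role, on chromosome 15 (98571004 to 98589588, GRCm38.p6). It rose in OE with an adjusted p of 0.0439 (limma), and its values were low. It was at 0.163, 0.15 and 0.143 FPKM in OE 1, 2 and 3 and was listed at 0 in the 3 OC libraries. The groups did not overlap, but the call was lost in 4 of the 6 other fits that tested it on every library and in 5 of the 6 fits that left out 1 library, with adjusted p between 0.0200 and 0.135.

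Genes of the sarcomere's Z-disc and of the response to mechanical load were lower in trained old soleus. Of 26 genes of this kind, all measured, 10 had an unadjusted p under 0.05 with a lower value in OE and 0 with a higher one, where all measured genes gave 3.85% and 3.04%. None of the 26 passed the adjusted p, and 4 were DEGs. Their median log2 difference was -0.14, against 0.00 over all measured genes, and 22 of the 26 lay below 0. In 8 of them every OE library was below every OC library, which held for 7.43% of measured genes. Without OC 5 the median was -0.08 with 9 genes at that p, and without OE 2 it was -0.14 with 5. The genes lower at that p were 7 with limma on only the 6 old libraries and 6 with the test without moderation.

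Ankrd2 and Csrp3 led the list, both coding for proteins that sit at the Z-disc and sense stretch. Ankrd2 was at 477, 553 and 368 FPKM in OE 1, 2 and 3, against 828, 966 and 970 FPKM in OC 3, 4 and 5. The log2 difference was -0.81 ± 0.24 (SE, adjusted p = 0.717), and every OE value lay below every OC value. Csrp3, the muscle LIM protein, was at 240.1, 225.1 and 244.3 FPKM in OE, against 365, 511 and 354 FPKM in OC. Its OE libraries lay within a narrow range, and its log2 difference was -0.68 ± 0.15 (SE, adjusted p = 0.438). Ankrd2 lies on chromosome 19 (42035917 to 42045111) and Csrp3 on chromosome 7 (48830398 to 48848051).

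Small heat shock proteins that guard the sarcomere's filaments stood beside them. Cryab, alpha B-crystallin, was at 2262, 2354 and 2565 FPKM in OE, against 2715, 3484 and 2997 FPKM in OC, a log2 difference of -0.60 ± 0.23 (SE, adjusted p = 0.769). Cryab shares its locus with Hspb2, and how the authors' quantification treated overlapping genes is not given in the sources used here. Hspb7 averaged 1294 ± 90.1 FPKM in OE and 1642 ± 67.9 FPKM in OC (SD, n = 3 each), with no overlap. Hspb1 was at 256, 253.7 and 272.7 FPKM in OE, against 310.4, 310.2 and 342.5 FPKM in OC. Mustn1, a small nuclear protein of growing and repairing muscle, was at 38.0, 34.2 and 28.9 FPKM in OE, against 49.1, 62.9 and 44.7 FPKM in OC (log2 difference -0.62 ± 0.17, SE). Xirp1, an actin-binding protein of damaged and remodelling fibres, and Ldb3, a Z-disc scaffold, also had non-overlapping lower values in OE, with log2 differences of -0.52 and -0.24. Other Z-disc genes of the list did not differ in this way. Tcap, the titin cap protein, had a log2 difference of -0.02 ± 0.09 and Ankrd23 one of 0.04 ± 0.14 (SE).

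**Figure D2:**
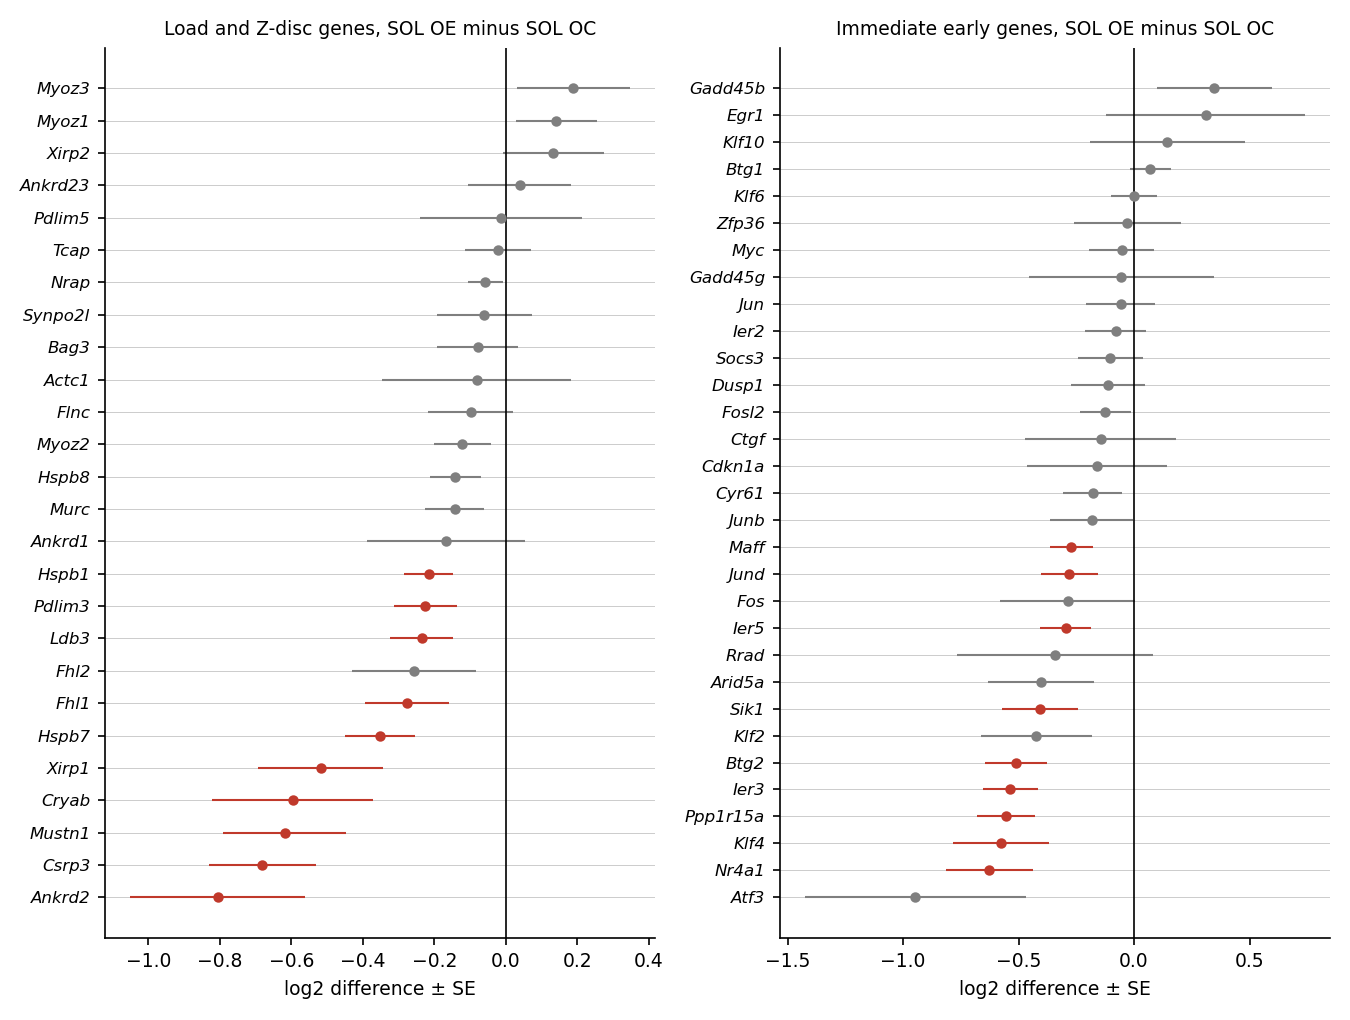
Log2 difference of SOL OE minus SOL OC (horizontal axis, limma estimate ± SE) for the 26 measured load and Z-disc genes on the left and the 31 measured immediate early genes on the right. Red points have an unadjusted p under 0.05, 10 on the left and 9 on the right, and each of them lies below 0.

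Immediate early genes, whose transcripts appear within minutes of a stimulus and decay within hours, were also lower in OE as a group. Of 36 such genes 31 were measured, 9 had an unadjusted p under 0.05 with a lower value and 0 with a higher one, where all measured genes gave 3.85% lower and 3.04% higher. Of the 31, 1 was a DEG and 0 passed the adjusted p. The median log2 difference was -0.18 and 27 of the 31 lay below 0. It stayed between -0.23 and -0.17 when any 1 of the 6 libraries was left out, with 6 to 8 genes at that p, and 4 without OC 5. With limma on only the 6 old libraries 7 genes were lower at that p, and 4 with the test without moderation.

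Nr4a1, a nuclear receptor induced by contraction, was at 17.3, 15.8 and 14.3 FPKM in OE, against 22.6, 24.4 and 26.6 FPKM in OC. The groups were apart, with a log2 difference of -0.63 ± 0.19 (SE, adjusted p = 0.711). Ppp1r15a, which helps restart translation after stress, was at 11.4, 11.0 and 10.8 FPKM in OE, against 17.6, 12.9 and 19.0 FPKM in OC. Its log2 difference was -0.55 ± 0.13 (SE, adjusted p = 0.471), and it was -0.72 with an adjusted p of 0.0334 when OC 4 was left out, within a range of 0.0334 to 0.895 over its alternatives. Btg2, a brake on cell division, was at 12.6, 12.6 and 12.1 FPKM in OE, against 16.8, 17.3 and 18.9 FPKM in OC. Ier3, a survival factor, was at 14.7, 13.9 and 17.9 FPKM in OE, against 23.02, 19.7 and 24.4 FPKM in OC. In all 4 genes every OE library lay below every OC library. The best known members gave no such separation. Fos was at 3.85, 5.26 and 2.67 FPKM in OE and 3.12, 7.36 and 4.74 FPKM in OC, and Egr1 at 8.33, 5.61 and 2.16 FPKM in OE and 2.34, 3.17 and 6.22 FPKM in OC.

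Many genes of this class are known to be switched on through a cyclic AMP response element (CRE, TGACGTCA, the same on both strands). The 250 bases before the RefSeq start (GRCm38.p6) were searched for it in the 24 measured members with an entry in the promoter table, and 4 held it, Btg2, Dusp1, Maff and Ppp1r15a, against 1.55% of 32851 promoters. Members are counted by gene and the background by promoter, so the units differ. Other motifs were searched too, and the E-box (CACGTG) was held by 6 of these 24 genes, against 6.02% of promoters. The MEF2 site was held by 3 (against 0.508%) and the CArG box by 1 (against 1.47%). Capitals mark the element, which begins 166 bases before the start in Btg2 and 12 bases before it in Ppp1r15a, the 2 of these genes whose OE and OC libraries did not overlap. The match is a description of the sequence only.
Btg2, chr1:134079156-134079405, minus strand: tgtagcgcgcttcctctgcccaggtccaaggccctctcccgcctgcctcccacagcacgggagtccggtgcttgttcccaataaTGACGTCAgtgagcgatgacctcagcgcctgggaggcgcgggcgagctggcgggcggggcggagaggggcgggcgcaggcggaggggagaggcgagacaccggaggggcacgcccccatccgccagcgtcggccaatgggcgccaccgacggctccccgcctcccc
Ppp1r15a, chr7:45526269-45526518, minus strand: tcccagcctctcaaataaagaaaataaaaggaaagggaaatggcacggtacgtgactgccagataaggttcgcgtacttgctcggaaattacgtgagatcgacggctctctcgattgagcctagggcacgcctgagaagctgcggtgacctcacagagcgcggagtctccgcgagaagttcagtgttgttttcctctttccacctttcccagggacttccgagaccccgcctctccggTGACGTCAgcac

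Clock genes lay on both sides, with period, cryptochrome and output genes lower in OE and Arntl higher. Of 24 such genes 22 were measured, 5 had an unadjusted p under 0.05 with a lower value in OE and 2 with a higher one, where all measured genes gave 3.85% lower and 3.04% higher. Of the 22, 2 were DEGs, both lower, and 0 passed the adjusted p. The median log2 difference was -0.19, and between -0.25 and -0.14 with any 1 library left out. In 8 genes every OE library lay below every OC library and in 2 above, where measured genes gave 7.43% and 6.7%. The hour of sampling is not given for either group, and its part in these values was not tested.

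Dbp, a transcription factor that carries the clock's output, was at 25.9, 22.5 and 22.9 FPKM in OE, against 36.9, 36.1 and 40.4 FPKM in OC. The gap between the groups was wider than the range within either, with a log2 difference of -0.65 ± 0.12 (SE, adjusted p = 0.368). Dbp overlaps Sphk2 at its locus on chromosome 7 (45705100 to 45710203). Ciart, a repressor of the clock, was at 3.08, 3.06 and 3.64 FPKM in OE, against 7.37, 4.31 and 7.68 FPKM in OC (log2 difference -0.80 ± 0.25, SE, adjusted p = 0.728). Per2, a period gene, was at 5.61, 6.15 and 6.74 FPKM in OE, against 7.82, 6.96 and 7.54 FPKM in OC. Cry1 and Cry2, the cryptochromes, had log2 differences of -0.22 ± 0.08 and -0.26 ± 0.09 (SE), again without overlap. Arntl, which codes for the activator BMAL1, went the other way. It was at 3.83, 4.95 and 4.87 FPKM in OE, against 2.39, 2.44 and 3.30 FPKM in OC, with a log2 difference of 0.56 ± 0.12 (SE, adjusted p = 0.421). Rora, an activator of Arntl, had a log2 difference of 0.18 ± 0.07 (SE), while Nr1d1, a repressor of Arntl, had one of -0.17 ± 0.24 and overlapping groups.

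The clock's activators bind the E-box (CACGTG, the same on both strands), and 5 of 17 measured clock genes with an entry in the promoter table held it in the 250 bases before the start, Bhlhe41, Ciart, Cry1, Per1 and Tef, against 6.02% of all promoters. Here too the members are counted by gene and the background by promoter. The E-box was not particular to this list, as 6 of 24 immediate early genes held it. The D-box (TTATGTAA or TTACGTAA) and the RORE core (TAGGTCA) were each held by 1 of the 17 clock genes, against 0.931% and 2.23% of promoters. Ciart, the clock gene with the largest difference, held 3, which begin 116, 58 and 44 bases before the start and are in capitals.
Ciart, chr3:95882229-95882478, minus strand: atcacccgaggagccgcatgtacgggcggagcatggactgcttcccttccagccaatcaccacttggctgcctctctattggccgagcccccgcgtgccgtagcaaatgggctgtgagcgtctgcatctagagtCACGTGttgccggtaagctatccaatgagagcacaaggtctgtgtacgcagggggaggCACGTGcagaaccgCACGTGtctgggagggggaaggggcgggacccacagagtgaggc

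In young soleus Arntl and Per2 had differences of the opposite sign. Arntl was at 2.33, 2.34 and 2.43 FPKM in YE, against 5.12, 4.06 and 4.39 FPKM in YC, a log2 difference of -0.71. Per2 was at 8.39, 7.52 and 7.86 FPKM in YE, against 5.44, 6.45 and 5.70 FPKM in YC, a log2 difference of 0.40. The effect in old minus that in young soleus was 1.27 for Arntl (adjusted p = 0.169) and -0.65 for Per2 (adjusted p = 0.347) on the log2 scale, both short of the threshold over all genes. For Ciart it was -0.0015, with log2 differences of -0.80 in old and -0.80 in young soleus.

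**Figure D3:**
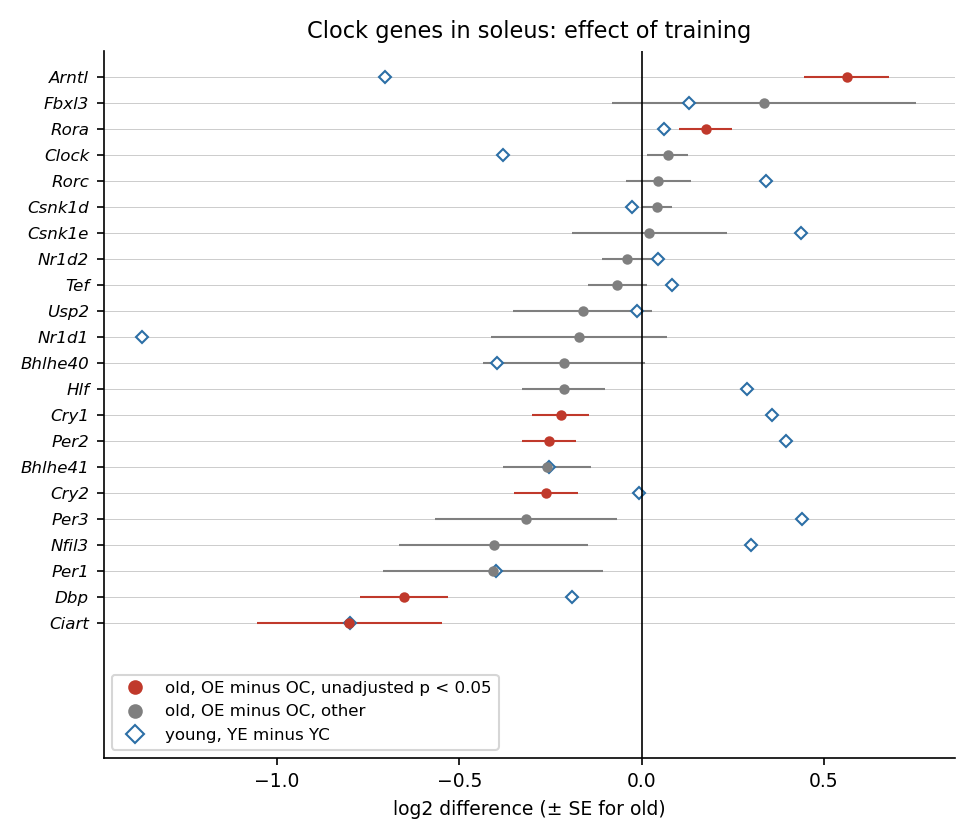
Log2 difference with training for the 22 measured clock genes in soleus, with old mice (OE minus OC, limma estimate ± SE) as filled points and young mice (YE minus YC) as open diamonds. Red points have an unadjusted p under 0.05 in old mice. Arntl lies at 0.56 in old and -0.71 in young mice, and Ciart at -0.80 in both.

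Angiogenic factors were lower in OE where they differed. Of 15 measured genes, 4 had an unadjusted p under 0.05 with a lower value and 0 with a higher one, where all measured genes gave 3.85% lower and 3.04% higher. Their median log2 difference was -0.12. Vegfa, the main growth factor for capillaries, was at 59.9, 81.1 and 38.8 FPKM in OE, against 88.8, 93.9 and 95.1 FPKM in OC. The OE libraries were widely spread and OE 3 the lowest, and the log2 difference of -0.66 ± 0.24 (SE, adjusted p = 0.762) was -0.36 without OE 3. Hif1a, which drives Vegfa when oxygen is low, averaged 6.54 ± 0.31 FPKM in OE and 7.60 ± 0.36 FPKM in OC (SD, n = 3 each). Nos3, the nitric oxide synthase of endothelium, and Cxcl12, a chemokine, had log2 differences of -0.24 and -0.36. The list's median was -0.02 without OE 3 and -0.04 without OC 5, and the genes lower at that p were 2 without OE 1, 2 without OE 3 and 1 without OC 5. Of 18 endothelial markers 1 was higher in OE at an unadjusted p under 0.05 and 0 were lower. Their sum was 267 to 301 FPKM in OE and 282 to 325 FPKM in OC.

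Lipid synthesis genes held 1 DEG, Pnpla3, which codes for a lipase and acyltransferase of lipid droplets. It was at 2.40, 2.41 and 2.20 FPKM in OE, against 0.629, 0.725 and 1.09 FPKM in OC. The groups were apart, with a log2 difference of 0.80 ± 0.30 (SE, adjusted p = 0.769). In GAS of the same groups it was at 1.823, 3.007 and 2.104 FPKM in OE and 0.954, 1.18 and 1.21 FPKM in OC, a log2 difference of 0.74. Thrsp, a driver of lipid synthesis, was at 13.1, 11.5 and 14.1 FPKM in OE and 6.971, 7.499 and 9.348 FPKM in OC, and Fasn, fatty acid synthase, at 10.6, 9.10 and 7.47 FPKM in OE and 4.23, 4.83 and 5.58 FPKM in OC. Both lay without overlap, and neither had an unadjusted p under 0.05. Of the 21 measured genes 1 was higher at that p, where all measured genes gave 3.04%. It was 5 with limma on only the 6 old libraries and 4 with the test without moderation. Over all genes of the table these fits gave 1382 and 1107 genes at that p in either direction, in place of 1145. Without overlap 5 lay higher in OE and 0 lower, where all measured genes gave 6.7% and 7.43%. Their median log2 difference was 0.05, and 0.11 without OE 3. The 17 measured adipocyte markers had a median of 0.0026, which was 0.17 without OE 3 and -0.07 without OE 1, with sums of 2292 to 2385 FPKM in OE and 1926 to 2255 FPKM in OC.

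Other DEGs higher in OE were Mchr1, Kcng4, Ddit4l and Lrrc30. Mchr1, the receptor of melanin-concentrating hormone, was at 10.1, 11.7 and 11.5 FPKM in OE, against 7.12, 4.32 and 4.57 FPKM in OC. Its log2 difference was 0.98 ± 0.20 (SE, adjusted p = 0.421). Kcng4, a potassium channel subunit, was at 2.98, 4.27 and 3.61 FPKM in OE, against 1.56, 2.09 and 1.41 FPKM in OC. Ddit4l, an inhibitor of the growth kinase mTORC1, was at 30.3, 33.6 and 43.1 FPKM in OE, against 20.3, 25.5 and 18.0 FPKM in OC. These 3 genes, like Lrrc30, a leucine-rich repeat gene at 48.8, 64.2 and 58.2 FPKM in OE against 41.1, 35.0 and 34.7 FPKM in OC, showed no overlap. In young soleus the log2 differences with training were 0.31 for Mchr1, 0.90 for Kcng4, 0.39 for Ddit4l and 0.52 for Lrrc30. Pisd-ps1 and Pisd-ps2, both transcribed pseudogenes of Pisd, had log2 differences of 0.81 and 0.62, but reads of such copies cannot be placed with certainty. The open reading frame 1500012K07Rik had one of 0.63, with overlapping groups.

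Signalling through TGF-beta showed single genes in both directions. Of 28 measured genes, 3 were higher and 2 lower in OE at an unadjusted p under 0.05, where all measured genes gave 3.85% lower and 3.04% higher. The counts were 1 higher and 1 lower without OE 1, and 2 higher and 1 lower without OC 3. The median log2 difference was -0.09, and -0.03 without OE 3 and -0.04 without OC 5. Smad3, which relays TGF-beta and myostatin signals, was at 19.5, 23.3 and 19.5 FPKM in OE, against 15.2, 17.1 and 14.4 FPKM in OC (log2 difference 0.41, adjusted p = 0.656). Smad7, an inhibitor of this signal, was at 2.16, 2.57 and 2.82 FPKM in OE, against 3.92, 3.02 and 3.35 FPKM in OC (log2 difference -0.35). Grb14, an inhibitor of the insulin receptor, was at 20.1, 19.8 and 20.8 FPKM in OE, against 23.4, 25.0 and 23.9 FPKM in OC. Myod1, a regulator of muscle identity, was at 6.36, 6.81 and 4.91 FPKM in OE, against 4.29, 4.69 and 3.62 FPKM in OC. Each of these 4 genes was without overlap, and none passed the adjusted p.

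Medians of the energy metabolism and contraction lists lay between -0.06 and 0.13. The median log2 difference was -0.01 over 37 genes of complex I, -0.03 over 14 of complex IV, -0.06 over 17 of complex V, 0.03 over 19 of the TCA cycle and -0.05 over 27 of fatty acid oxidation. Of these, 21, 10, 15, 5 and 21 genes lay below 0, in the same order, where 5466 of 11004 measured genes did. At an unadjusted p under 0.05 these lists held 0 genes higher in OE, and 1, 2, 1, 0 and 2 genes lower, in the same order, where all measured genes gave 3.85% lower and 3.04% higher. With any 1 library left out, the medians of complexes I, IV and V and of the TCA cycle stayed between -0.10 and 0.04. That of fatty acid oxidation was -0.12 with 5 genes lower without OC 4, -0.09 with 4 lower without OE 2, -0.02 with 0 lower without OC 3, and -0.09 with 6 lower without quantile normalization. Ppargc1a, the coactivator of mitochondrial biogenesis, was at 12.3, 13.0 and 9.41 FPKM in OE and 13.5, 13.1 and 11.8 FPKM in OC, with overlap. The 13 slow contractile genes had a median of 0.13, which was 0.24 with 3 genes higher at that p without OC 5, 0.02 without OC 4, 0.03 without OE 3, 0.06 without OC 3 and 0.05 without quantile normalization. The 14 fast ones had a median of 0.04, which was 0.27 without OC 3 and -0.15 without OC 5. Of 24 genes of protein breakdown, 1 was higher and 2 lower in OE at that p. Fbxo32, the atrophy ubiquitin ligase atrogin-1, was at 92.2, 88.2 and 78.4 FPKM in OE and 90.1, 66.6 and 83.9 FPKM in OC. Collagen and matrix genes gave 0 of 28 in either direction and a median of 0.09, which was 0.24 without OE 3, 0.22 without OC 5, 0.01 without OE 2, -0.04 without OE 1 and -0.05 without OC 4. Of 30 measured apoptosis genes, 1 was higher and 0 lower, with a median of -0.03.

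Among the cell type lists with at least 5 measured genes, macrophages had the highest median. The 17 measured genes of macrophages and MHC class II had a median log2 difference of 0.37, and 16 of the 17 lay above 0, but 0 had an unadjusted p under 0.05 in either direction and 0 passed the adjusted p. The 20 genes of the list summed to 142, 145 and 143.5 FPKM in OE, against 128, 87.7 and 103 FPKM in OC, so that the groups did not overlap. At an unadjusted p under 0.05, 5 of them were higher with limma on only the 6 old libraries, 4 without OC 3 and 2 without OE 2. Over all genes of the table these fits gave 1382, 1107 and 1002 genes at that p in either direction. With limma on the 12 SOL libraries it was 1145, and all measured genes gave 3.04% higher and 3.85% lower. Cd74, the chaperone of MHC class II, was at 21.7, 25.3 and 18.4 FPKM in OE, against 17.7, 9.81 and 15.4 FPKM in OC. Csf1r, the receptor that macrophages need to survive, was at 7.08, 7.11 and 6.78 FPKM in OE, against 6.08, 4.59 and 4.61 FPKM in OC. The 12 measured fibroblast markers had a median of 0.20, which was 0.32 without OE 3 and 0.12 without OE 1, and 1 of them, Pdgfra, a receptor that defines fibro-adipogenic progenitors, was higher at an unadjusted p under 0.05. Pdgfra was at 6.98, 7.34 and 6.37 FPKM in OE, against 4.91, 4.76 and 5.16 FPKM in OC (adjusted p = 0.632). Whether cell numbers account for these values was not tested.

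**Figure D4:**
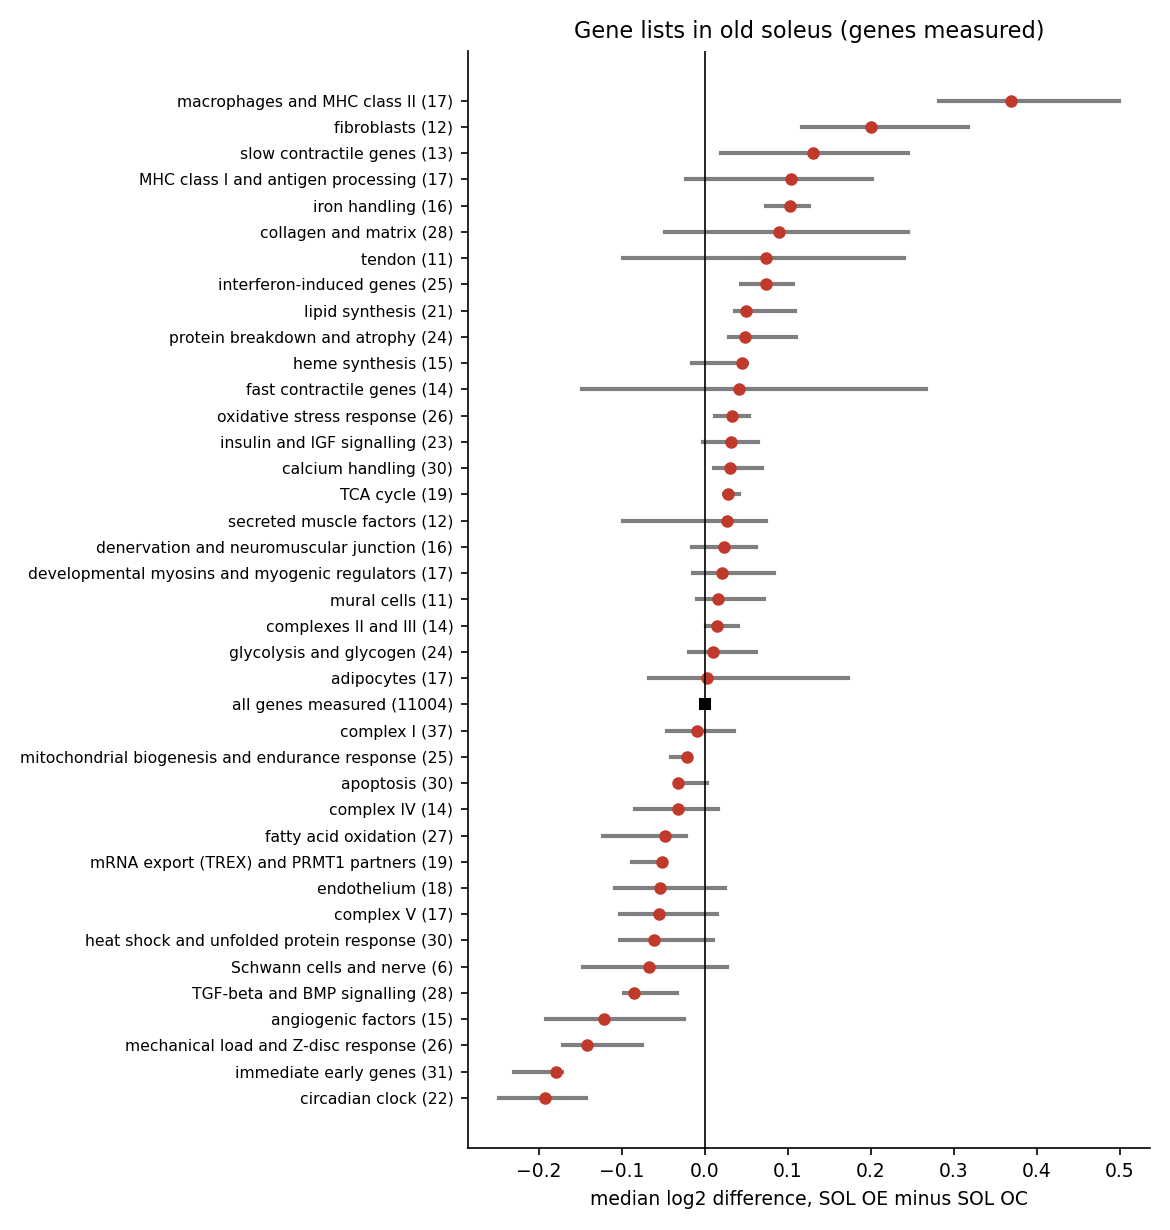
Median log2 difference of SOL OE minus SOL OC for each gene list with at least 5 measured genes except the globins (red points, number of measured genes in brackets), beside all 11004 measured genes (black square). Grey bars span the medians found when each of the 6 libraries was left out in turn. Clock, immediate early and load genes lie lowest, at -0.19, -0.18 and -0.14, and macrophage genes highest, at 0.37.

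Chtop, which binds the mRNA export complex TREX and the methyltransferase PRMT1, was at 16.8, 17.0 and 15.4 FPKM in OE, against 31.8, 35.0 and 33.0 FPKM in OC. Its log2 difference was -1.0027 ± 0.33 (SE, adjusted p = 0.737), where the SE draws on all 12 SOL libraries. The adjusted p of this difference lay between 0.0753 and 0.989 over its alternatives. Over all 24 libraries Chtop took values in 2 separate ranges, with 10 libraries between 12.2 and 17.0 FPKM and 14 between 24.1 and 35.8 FPKM. The low range held the 3 SOL OE, 2 of the 3 SOL YE, 1 of the 3 SOL YC, the 3 GAS OC and 1 of the 3 GAS YC libraries. In GAS the order was the opposite, at 31.2, 30.6 and 24.1 FPKM in OE and 13.1, 12.7 and 12.2 FPKM in OC. The effect in SOL minus that in GAS was -2.14 on the log2 scale (limma on the 24 libraries, adjusted p = 0.245). The adjusted p was 0.000106 with limma on only the 12 old libraries, 0.000746 with the test without moderation on them and 0.633 with the mouse as a block, within a range of 0.000106 to 0.633 over its alternatives. Of 19 genes of mRNA export and PRMT1, 4 were lower at an unadjusted p under 0.05 and 0 higher, where all measured genes gave 3.85% lower and 3.04% higher. Their median was -0.05, and -0.09 without OE 3. Zc3h11a, another export factor, was at 15.5, 14.6 and 14.9 FPKM in OE, against 22.7, 20.1 and 24.2 FPKM in OC.

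Fech, the last enzyme of heme synthesis, had a like division. It was at 64.1, 66.7 and 73.7 FPKM in OE, against 39.2, 40.9 and 38.3 FPKM in OC, with a log2 difference of 0.82 ± 0.17 (SE, adjusted p = 0.421). Over the 24 libraries 6 lay between 55.3 and 73.7 FPKM and 18 between 30.1 and 40.9 FPKM, and the upper range held the 3 SOL OE libraries, 1 SOL YC, 1 GAS OE and 1 GAS OC library. Of 15 genes of heme synthesis only Fech had an unadjusted p under 0.05, where all measured genes gave 3.04% higher and 3.85% lower. The median of the 15 was 0.04. What sets the 2 ranges of Chtop and of Fech was not tested.

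Hbb-b1, an adult beta globin, gave the largest difference among the DEGs, at 16.6, 13.3 and 31.2 FPKM in OE against 4.20, 0.130 and 0.224 FPKM in OC (log2 difference 3.35 ± 1.48, SE, adjusted p = 0.82). The sum of the 4 adult beta globin rows of the table went the other way for 2 of the 3 OC libraries. It was 23.98, 19.35 and 43.54 FPKM in OE and 6.32, 135.6 and 171.3 FPKM in OC, with overlapping groups. Hbb-b1 made up 69.1%, 68.7% and 71.7% of that sum in OE and 66.4%, 0.0958% and 0.131% in OC, where OC 4 and OC 5 had Hbb-bs at 92.3 and 120.9 FPKM and the other 4 libraries had it listed at 0. The alpha globins Hba-a1 and Hba-a2 were divided too, but along other libraries, with Hba-a1 at 67.0 FPKM and Hba-a2 at 0.133 FPKM in OE 3, and Hba-a1 listed at 0 in OE 1, OE 2 and OC 3. In OC 4 and OC 5 Hba-a2 was at 129.3 and 164.4 FPKM and Hba-a1 at 2.00 and 2.55 FPKM. The coding sequences of Hba-a1 and Hba-a2 differ in 1 of 426 bases and those of Hbb-bs and Hbb-bt in 1 of 441, so the level of each of these rows is uncertain. The likeness of Hbb-b1 and Hbb-b2 to the other rows was not measured, and what sets their division was not tested. Hbb-b1 and Hbb-b2 on one side and Hbb-bs and Hbb-bt on the other are gene names of alternative haplotypes of this locus. The part of blood RNA in other results was not tested.

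**Figure D5:**
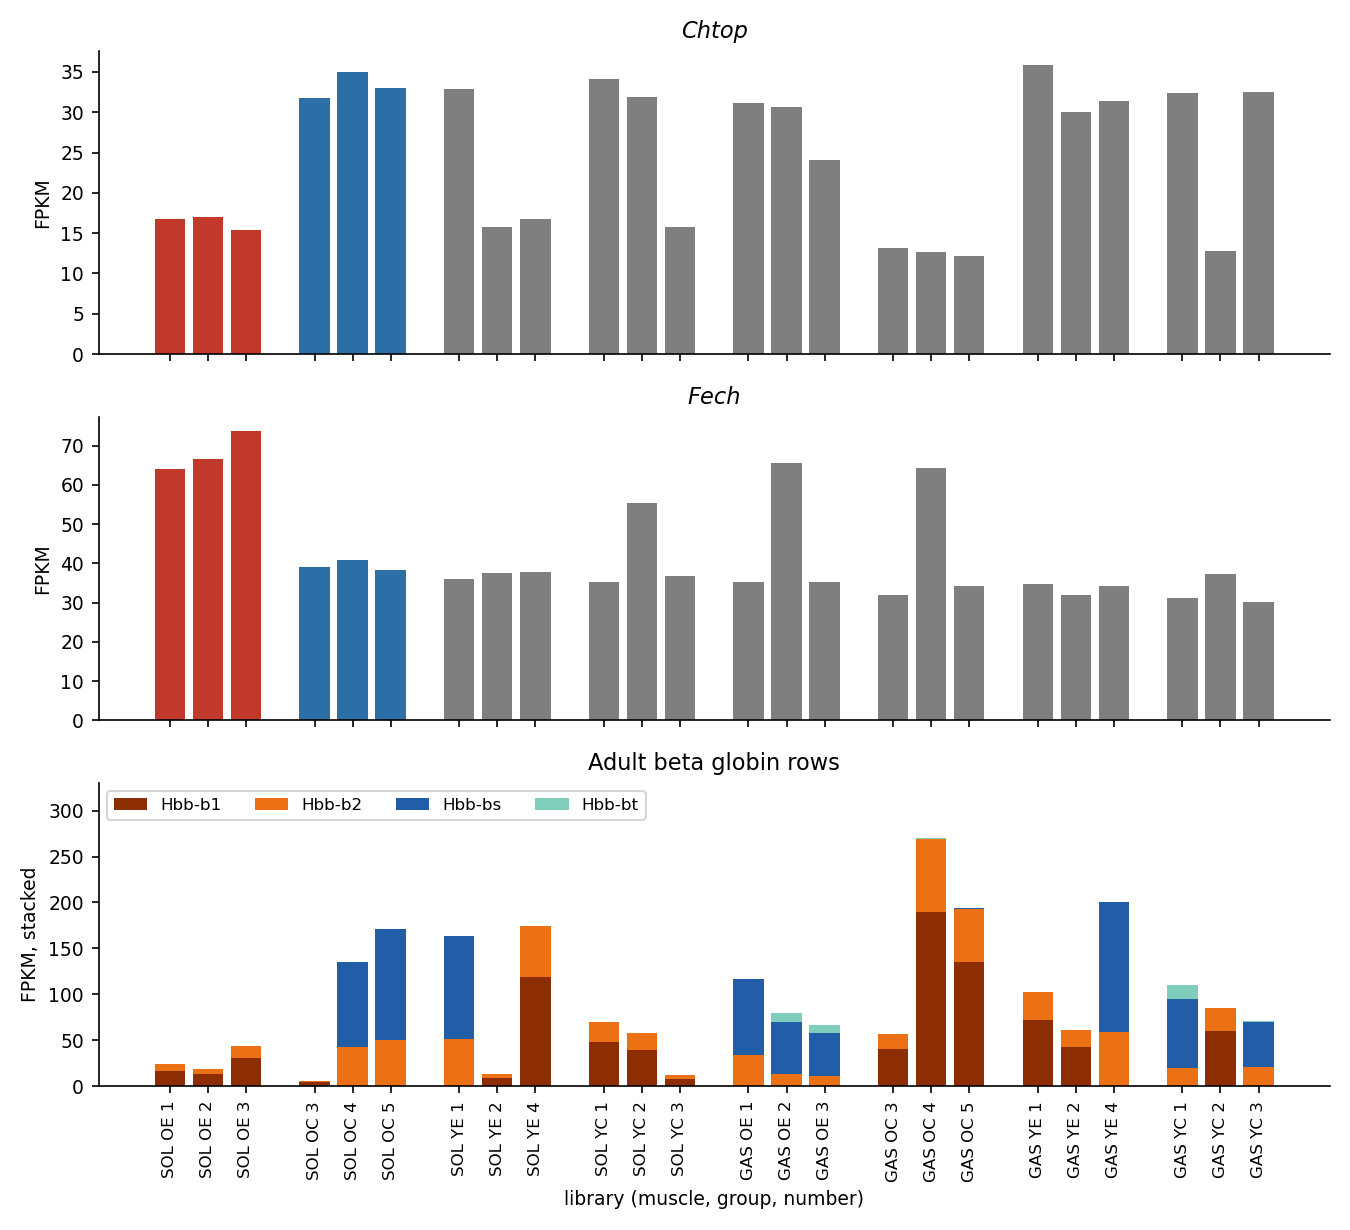
FPKM of Chtop (top), Fech (middle) and the 4 adult beta globin rows stacked (bottom) in each of the 24 libraries, with SOL OE in red and SOL OC in blue in the upper panels and the other groups in grey. Chtop lies at 15.4 to 17.0 FPKM in SOL OE and 31.8 to 35.0 FPKM in SOL OC, and the beta globin sum of SOL OC 4 and OC 5 is made of Hbb-bs and Hbb-b2 where that of SOL OE is made of Hbb-b1 and Hbb-b2.

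Of the 28 DEGs 5 were microRNA loci. The library was made from polyadenylated RNA, so these rows count fragments over short hairpin loci, 4 of them overlapping a protein-coding gene, and are no measure of the mature microRNAs. Mir7682, which overlaps Trmt1l, was at 0.0354, 0 and 0 FPKM in OE, against 1.19, 0.945 and 0.692 FPKM in OC (log2 difference -0.87 ± 0.11, SE, adjusted p = 0.133). Mir7666, which overlaps Micu3, was at 0.233, 0.177 and 0.467 FPKM in OE, against 1.08, 1.25 and 1.58 FPKM in OC. Mir142, at a locus active in blood cells, was at 0.400, 0.328 and 1.14 FPKM in OE and listed at 0 in the 3 OC libraries. It was highest in OE 3, the library highest in lymphocyte and neutrophil markers though not in globins. Mir7019, which overlaps Pink1, and Mir8112, which overlaps Krcc1, were lower, with log2 differences of -0.62 and -0.59. The mature sequences that RefSeq (GRCm38.p6) places at 4 of these loci are given to identify them, with the seed (bases 2 to 8) in capitals, and the 6 sequences have 6 different seeds.
mmu-miR-7682-5p: aGGCACGAcucuugccacagaaac
mmu-miR-7019-5p: aUCUGGGAggggcugucaggagu
mmu-miR-7019-3p: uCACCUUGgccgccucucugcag
mmu-miR-8112: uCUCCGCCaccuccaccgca
mmu-miR-142a-5p: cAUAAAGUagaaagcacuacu
mmu-miR-142a-3p: uGUAGUGUuuccuacuuuaugga

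The remaining lower DEGs were led by Sap25, a subunit of the Sin3 corepressor. It was at 0.2, 0.24 and 0.0995 FPKM in OE, against 0.398, 4.62 and 4.49 FPKM in OC, so that OC 3 lay close to the OE values (log2 difference -1.51 ± 0.42, SE, adjusted p = 0.669). Without OC 3 its log2 difference was -2.13 with an adjusted p of 0.00154, within a range of 0.00154 to 0.989 over its alternatives. Otud1, a deubiquitinase, was at 21.6, 28.4 and 31.9 FPKM in OE and 30.1, 62.2 and 51.6 FPKM in OC, where the groups overlap. The open reading frame 4933415F23Rik had a log2 difference of -0.64 and the small nucleolar RNA Snord104 one of -0.59.

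Whether training acted alike in old and young soleus was tested as the difference of the effects, SOL OE/OC minus SOL YE/YC, which share no library. Of 18795 genes 0 passed an adjusted p under 0.05 (0%) with limma and 0 with the test without moderation, and 1156 had an unadjusted p under 0.05 (6.15%). SOL YE/YC itself gave 68 DEGs (0.362%), 0 genes past the adjusted p (0%) and 1704 at an unadjusted p under 0.05 (9.07%). Load genes had a median log2 difference of -0.14 in old and -0.19 in young soleus, with Ankrd2 at -0.81 in old and -0.73 in young and Csrp3 at -0.68 in old and -0.60 in young. Lipid synthesis genes had a median of 0.05 in old and 0.26 in young soleus, and collagen and matrix genes 0.09 in old, with a sign that turned without OE 1 or OC 4, and -0.48 in young. The differences of these medians were not tested.

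Between muscles, SOL OE/OC minus GAS OE/OC had an unadjusted p under 0.05 in 641 genes (3.41%) and passed an adjusted p under 0.05 in 5 (0.0266%), and in 0 when the 2 muscles of the same number were treated as 1 mouse. GAS OE/OC itself gave 30 DEGs (0.16%) and 3 genes past the adjusted p (0.016%), with 876 at an unadjusted p under 0.05 (4.66%). Load genes had a median of -0.14 in SOL and -0.27 in GAS, and Ankrd2 was at -0.81 in SOL and -1.10 in GAS. Clock genes had a median of -0.19 in SOL and -0.09 in GAS, with Dbp at -0.65 in SOL and -0.44 in GAS and Arntl at 0.56 in SOL and 0.40 in GAS.

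The comparison of old with young controls, SOL OC/YC, shares the OC libraries with SOL OE/OC, so spread in the OC libraries enters both with opposite sign. Side by side and with that limit, the log2 differences were -0.65 in OE/OC and -0.75 in OC/YC for Dbp, -0.63 and -0.63 for Nr4a1, 0.80 and -0.71 for Pnpla3, 0.73 and -0.69 for Kcng4, and -0.68 and 0.00 for Csrp3. These genes were picked from the DEGs with their values seen. How often the signs match over all DEGs was not counted.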

How the data were processed

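Total RNA of whole soleus and gastrocnemius was sequenced as poly(A) libraries, 24 in all, of which the 6 of old soleus are compared here and the other 18 serve the shared estimate of spread or the side comparisons. Per the submitters' processing notes, reads were aligned with HISAT2 2.1.0 to mm10 and quantified with StringTie 1.3.4d, whose strand setting is not given in the sources used here. The authors deposited FPKM per gene and log2(FPKM + 1) values, which they had quantile normalized over the 24 libraries with preprocessCore. Repeating that step on the deposited FPKM gave the deposited log2 values to within 5e-09. Since FPKM carries no read counts, depth and counting error are unknown, no count model was used, and fold changes of low genes are understated by the pseudocount of 1. The columns of the authors' own comparison of soleus with gastrocnemius (fold changes, p-values, statistics, means and SDs) were not used, and 0 columns belonged to samples outside the labels.

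Group means of the 12 soleus libraries were fitted to the deposited log2 values with limma 3.58.1 (R 4.3.3, two-sided, variance moderated with an intensity trend), and p-values were adjusted by Benjamini-Hochberg over 18795 genes. Lists, sums and sequences were handled in Python 3.11.15. The scripts were tested on simulated data. DEGs follow the study's cutoffs, a fold change over 1.5 at an unadjusted p under 0.05, applied to the limma p where the study used genefilter. Differences between effects were contrasts of the same model, with the 24 libraries for the gastrocnemius. Groups are said to overlap or not by their normalized values. Of the gene IDs, 18758 of 18795 matched the RefSeq annotation (GRCm38.p6), which gave coordinates, and 26 symbols were restored from their IDs. Named genes were those past the adjusted p, the DEGs, up to 4 members of each list with the smallest p, all measured members of the load, immediate early, clock and lipid synthesis lists, the globins, Pnpla3 and Chtop. Myh4, Myh7, Cd74, Ppargc1a and Fbxo32 are named outside this rule, with their values seen. The comparison, the members and the lists were chosen with earlier results of these data known. Alternatives were a pseudocount of 0.1, fits of the compared libraries alone with and without moderation, a filter of 1 FPKM in 3 libraries, no quantile normalization, quantile normalization within a muscle, no intensity trend, and leaving out each library.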

Additional observations from a re-analysis of the deposited data

Results flagged for a closer look

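In 5 genes the effect of training in old soleus differed from that in old gastrocnemius at an adjusted p under 0.05 (limma, SOL OE/OC minus GAS OE/OC, Benjamini-Hochberg over 18795 genes). With the filter of 1 FPKM in 3 libraries only Cdc27 was tested, and it passed (limma, adjusted p = 0.00324). None of the 5 passed when the muscles of the same number were treated as 1 mouse, where the adjusted p lay between 0.0781 and 0.323. For Cdc27, a subunit of the anaphase-promoting complex that overlaps Myl4, the difference was 0.80 on the log2 scale (adjusted p = 0.00188). Cdc27 was at 5.92, 5.47 and 5.57 FPKM in SOL OE and 5.91, 5.31 and 5.36 FPKM in SOL OC, and at 2.45, 2.25 and 1.86 FPKM in GAS OE and 4.26, 4.89 and 5.20 FPKM in GAS OC, so that the groups were apart in GAS and overlapped in SOL. For Tgm5, a transglutaminase, the difference was -0.49 (adjusted p = 0.0277), with 0.468, 0.405 and 0.464 FPKM in SOL OE against 0.869, 1.24 and 1.15 FPKM in SOL OC, and at most 0.0528 FPKM in old GAS. Tgm5 did not pass with a pseudocount of 0.1 or without the intensity trend (limma, adjusted p = 0.0572). Its adjusted p lay between 0.0037 and 0.123 with 1 library left out (limma).

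The other 3 genes lay near or at 0. The difference was 0.17 for 4930415O20Rik (adjusted p = 0.000256), which was listed at 0 in SOL OC. It was 0.0816 for Ppp1r36 (adjusted p = 0.000256), which was listed at 0 in old soleus and GAS OE and was at 0.04999, 0.05032 and 0.0543 FPKM in GAS OC. It was -0.10 for BC107364 (adjusted p = 0.0391), which was listed at 0 in SOL OE and old GAS and was at 0.0867, 0.0461 and 0.112 FPKM in SOL OC. Without the intensity trend the adjusted p was 0.218 for Ppp1r36 and 0.324 for BC107364 (limma). That of BC107364 lay between 4.35e-07 and 0.123 with 1 library left out (limma).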

How the results depend on the processing

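In SOL OE/OC the 1 gene past an adjusted p under 0.05 became 3 with the test without moderation (4930415O20Rik, Golga2 and Gm10638) and 0 with a pseudocount of 0.1, with the filter of 1 FPKM in 3 libraries (where 4930415O20Rik is not tested), without quantile normalization, with quantile normalization within a muscle and without the intensity trend. It lay between 2 and 11 when 1 library was left out, with the 11 without OC 3. The 28 DEGs became 187 with a pseudocount of 0.1 and lay between 28 and 41 with 1 library left out. The difference between old and young soleus gave 1 gene with a pseudocount of 0.1 in place of 0, and 0 to 4 with 1 library left out, with the 4 without SOL OC 3. The difference between muscles gave 9 genes with limma on only the libraries compared, Chtop and Hbb-b1 among them, 1 with the filter and 2 without the intensity trend in place of 5, and 3 to 9 with 1 library left out. No paired analysis was possible because SOL OE and SOL OC come from separate groups of mice. For the difference between muscles, a replicate block that took the soleus and gastrocnemius of 1 number as 1 mouse gave 0 genes; the labels do not say that they are, and the deviations of same-numbered libraries correlated between -0.0312 and 0.127 in old mice and between 0.0828 and 0.35 in young mice. Without quantile normalization the median of complex I was -0.0714 in place of -0.01 and that of complexes II and III -0.0452 in place of 0.01. With 1 library left out, list medians spanned -0.171 to -0.0757 for load genes, -0.15 to 0.27 for fast contractile genes, 0.0294 to 0.11 for protein breakdown, -0.0024 to 0.0645 for insulin and IGF signalling and -0.0279 to 0.0033 for apoptosis. Hba-a1 was at -1.06 and Hbq1b at -0.0151 without OE 3, below 0 where all libraries gave a value above 0, and Hba-a1 reached 1.97 without OE 1. The causes of these changes were not tested. Of the single-gene values, 967 kept their direction and side of the threshold, 9 lost the threshold, all of 4930415O20Rik, and 3 gained it, 1 each of Ppp1r15a, Sap25 and Mir7682. With 3 mice a group and FPKM only, small differences are beyond these data.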

Other observations

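Iron handling and heat shock genes were measured beside the groups above. Of 16 measured genes of iron handling, 2 were higher in OE at an unadjusted p under 0.05 and 0 lower, where all measured genes gave 3.04% and 3.85%, with a median log2 difference of 0.10, which stayed between 0.07 and 0.13 with any 1 library left out, with 1 gene at that p without OE 3, OC 4 or OC 5 and 3 without OE 2. Of 30 genes of heat shock and the unfolded protein response, 0 were higher and 1 lower, with a median of -0.06, which was 0.01 without OC 5 and -0.10 without OC 4. Gabarapl1, an autophagosome protein, was at 82.1, 81.9 and 92.4 FPKM in OE, against 112, 108 and 127 FPKM in OC, without overlap (log2 difference -0.42, limma adjusted p = 0.737). Interferon-induced genes gave 0 of 25 at an unadjusted p under 0.05 in either direction and a median of 0.07 in OE/OC, beside 0.32 in young soleus. In OE/OC 21 of the 25 lay above 0, and the median stayed between 0.04 and 0.11 with any 1 library left out.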
